A study of Mus musculus with 8 samples.

Results

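Kinesins are motor proteins that use ATP to walk along microtubules or to take microtubule ends apart. Among 18193 genes measured in mouse embryonic stem cells (ESCs), 41 were kinesin genes by their symbol. The members are all genes whose symbol begins with Kif or Kifc followed by a digit, taken whatever their values. Kinesins under other symbols fall outside this rule, such as Cenpe, which is read below in the list of partners of mitotic kinesins. Each gene is represented by the probe set with the highest mean over all 8 arrays, among those that carry 1 gene symbol. Of 42 protein-coding symbols of this form in the RefSeq gene list, Kif19a was the 1 not analysed here. By their textbook roles, 14 of the 41 are mitotic motors, 17 carry cargo or shape the interphase microtubule array, here called transport kinesins, and 10 have other roles, among them motors of cilia and Kif2a, which also acts in mitosis.

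ESCs were cultured on gelatine with no feeder cells and no serum, in N2B27 with leukaemia inhibitory factor (LIF), 1 μM of the MEK inhibitor PD0325901 and 3 μM of the GSK3 inhibitor CHIR99021, a medium called 2i that all groups shared. The 3 Resc arrays hold cells given 64 μM of the MYC inhibitor 10058-F4 for 60 h and then kept for 48 h in 2i without it. The 2 MYCi arrays hold cells given 64 μM of 10058-F4 for 60 h, and the 3 DMSO arrays hold cells given the solvent alone in an equal volume for 60 h. 10058-F4 is a small molecule known to disturb the dimer of MYC and MAX. Resc cells spent 48 h longer in culture than those of both other groups, so withdrawal and the added time in culture cannot be told apart. The labels name neither the ESC line nor separate cultures for the replicates, so a p-value speaks for the variation among these arrays, and that may be technical.

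Kinesins share a motor domain that binds ATP and tubulin, and they differ in the tail that binds cargo, chromosomes or a second microtubule. Mitotic kinesins build the spindle, move chromosomes and organise the central spindle from which the cell is cut apart, and their transcripts are known to be made mainly late in the cell cycle. Transport kinesins carry vesicles, endosomes, mitochondria and ciliary components, and several are best known from the axons of neurons. ESCs in 2i divide quickly, which makes the mitotic members a regular part of their transcriptome.

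Each probe set has 1 deposited log2 value per array, so a log2 change of 1 is a doubling, and a value is a position on the scale of its own probe set, not a molecule number. A gene was called higher or lower at an adjusted p under 0.05 in limma's moderated test over all 18193 genes. Array medians lay between 4.54 and 4.59, and Trpn control probe sets, which match no mouse transcript, lay between 2.15 and 2.95. Kif2b lay at or under the upper end of that range on all 8 arrays and Kif14 on 7 of 8, which limits the change either can show. The standard deviation between replicates of a kinesin had a median of 0.080 on the Resc arrays, 0.075 on the MYCi arrays and 0.079 on the DMSO arrays. RNA integrity was read from control probe sets, as the 3′ one minus the 5′ one. For Gapdh this was -0.117 to -0.133 on the Resc arrays, -0.148 and -0.216 on the MYCi arrays and -0.108 to -0.130 on the DMSO arrays, with both MYCi arrays outside the other ranges. For β-actin it was 0.248 to 0.278 on the Resc arrays, 0.254 and 0.288 on the MYCi arrays and 0.251 to 0.269 on the DMSO arrays, which overlap. The part of RNA integrity in the results was not tested.

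The first comparison asked which kinesin transcripts differed after 60 h with the inhibitor. Of the 14 mitotic kinesins, 11 were lower in MYCi than in DMSO cells and 0 were higher, in limma's test and at an unadjusted p under 0.05 alike. Of the 17 transport kinesins, 9 were higher and 1 was lower. Among the other 10 kinesins, 1 was higher and 5 were lower. With Kif2a, a motor of spindle poles as well as of neurites, counted as mitotic, a count added after the values were seen, 12 of 15 were lower and 0 higher. In the whole table, 41.5% of the 18193 genes were called in this comparison, 19.2% higher and 22.3% lower. The median log2 change was -0.59 for mitotic kinesins, 0.20 for transport kinesins and -0.22 for the rest, beside -0.058 over all genes. In bulk RNA, fewer cells in a phase or of a type and less RNA per cell cannot be told apart.

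**Figure D1:**
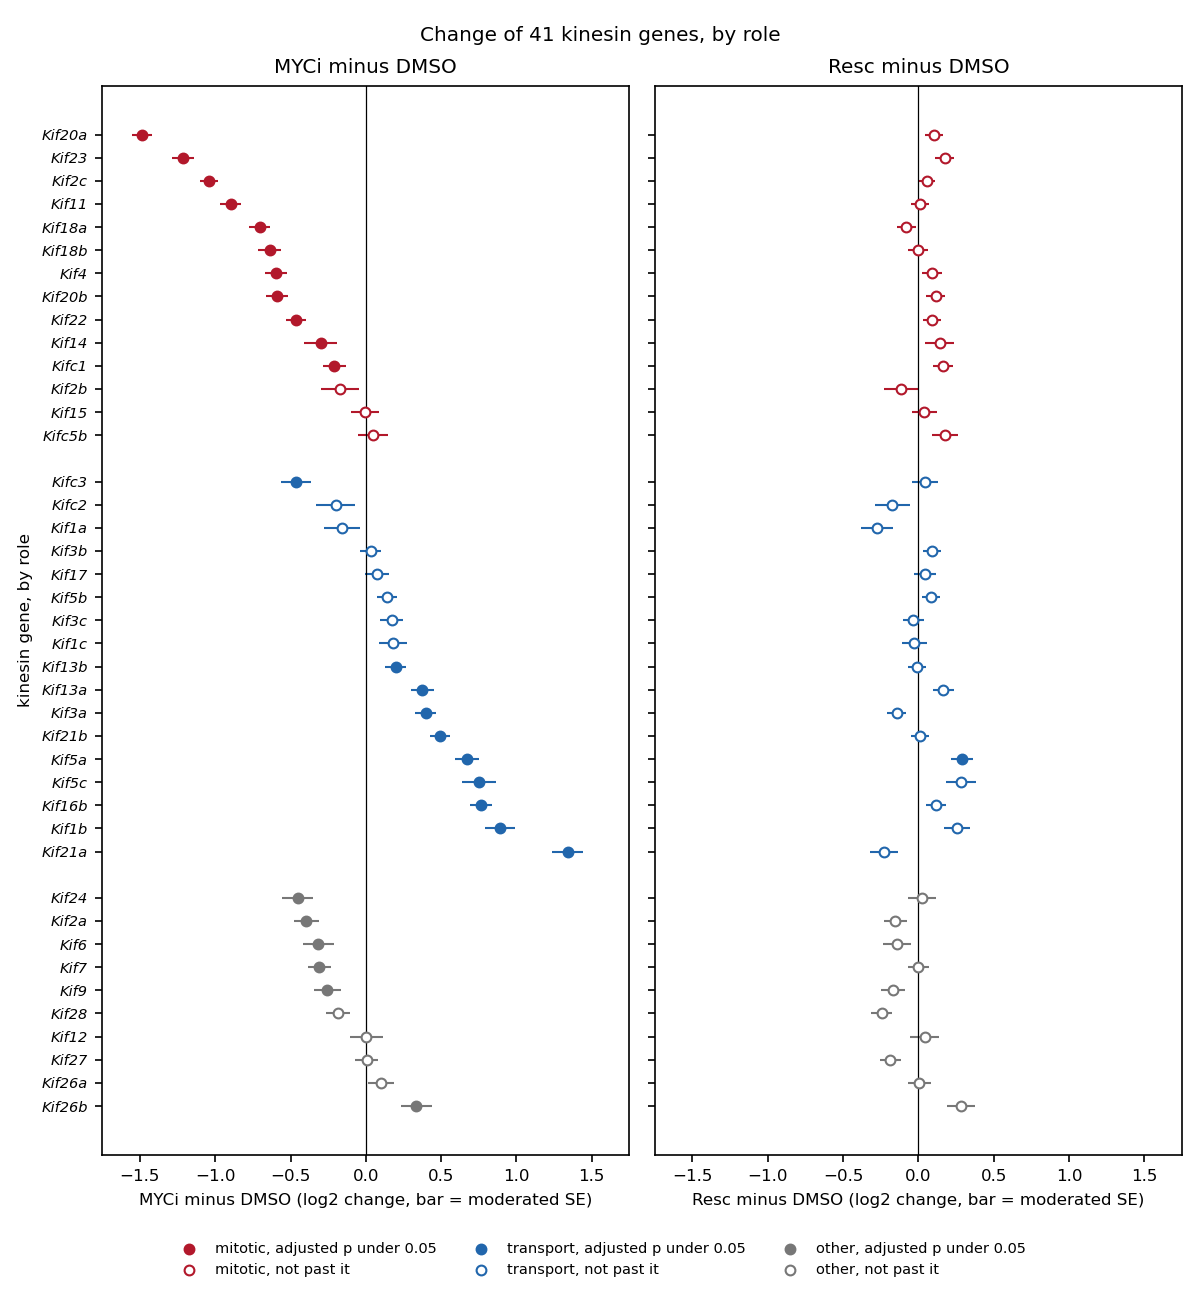
Log2 change of each of the 41 kinesin genes, with mitotic members in red, transport members in blue and the others in grey; the left panel shows MYCi minus DMSO and the right panel Resc minus DMSO, and bars are moderated standard errors. Filled points passed an adjusted p of 0.05. Red points run down to -1.49 and blue points up to 1.34 on the left, and on the right 1 point, Kif5a, is filled.

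All 4 mitotic kinesins of the central spindle and cytokinesis were lower in MYCi cells. Kif20a, which brings the chromosomal passenger complex to the central spindle, had 8.30 and 8.17 on the MYCi arrays, against 9.66, 9.77 and 9.74 on the DMSO arrays. The 2 groups were far apart beside their spread, and the log2 change was -1.49 ± 0.067 (adjusted p = 2.04e-07), a 2.8-fold lower level. Kif23, the motor subunit of centralspindlin, had 7.68 and 7.71 on the MYCi arrays, against 8.88, 8.93 and 8.92 on the DMSO arrays. Its replicates lay close together in both groups, with a log2 change of -1.22 ± 0.074 (adjusted p = 1.09e-06), 2.32-fold lower. Kif20b, a further kinesin of cytokinesis, changed by -0.59 ± 0.072 (adjusted p = 1.10e-04) on the log2 scale. Kif14, a midbody motor that binds citron kinase and PRC1, changed by -0.30 ± 0.11 (adjusted p = 0.0469) near the level of the control probe sets. The Kif14 call was lost without MYCi replicate 1 (adjusted p = 0.297), without Resc replicate 3 (0.0626) and without DMSO replicate 1, 2 or 3 (0.0573, 0.0824 and 0.123).

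Among the 6 motors of chromosomes and kinetochores, 5 were lower in MYCi cells. Kif2c, which removes tubulin from microtubule ends at centromeres, had 8.32 and 8.29 on the MYCi arrays, against 9.36, 9.37 and 9.32 on the DMSO arrays. All MYCi arrays lay below all DMSO arrays, with a log2 change of -1.04 ± 0.059 (adjusted p = 6.98e-07), 2.06-fold lower. The kinesin-8 motors followed in size, with -0.70 ± 0.070 (adjusted p = 2.61e-05) for Kif18a, which dampens chromosome oscillation, and -0.64 ± 0.074 (adjusted p = 7.86e-05) for Kif18b, which limits astral microtubules. For the chromokinesins, which bind chromosome arms, the log2 change was -0.60 ± 0.074 (adjusted p = 1.18e-04) for Kif4 and -0.46 ± 0.067 (adjusted p = 3.52e-04) for Kif22. Kif2b, which turns over microtubules at kinetochores, did not pass at -0.17 (adjusted p = 0.326).

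The 4 motors of spindle assembly were divided. Kif11, which slides antiparallel microtubules apart to separate the poles, was lower with a log2 change of -0.90 ± 0.067 (adjusted p = 4.21e-06). Kif15, which can stand in for Kif11 in human cells, had a log2 change of -0.0042 (adjusted p = 0.977). Kifc1, a minus-end motor that focuses spindle poles, was lower by a small margin at -0.21 ± 0.075 (adjusted p = 0.0473), and Kifc5b, its close copy, had 0.05 (adjusted p = 0.732). These copies may share signal on the arrays, so their separate values are uncertain. The Kifc1 call was lost without any 1 of 7 arrays, all but DMSO replicate 2, with an adjusted p of 0.0529 to 0.235. In all, 9 of the 11 mitotic calls held in each of 18 alternative analyses, Kif14 and Kifc1 being the exceptions, and 9 or 10 mitotic members were called lower when 1 array was left out. With the mean of all probe sets of a gene, Kif20b changed by -0.39 and Kif22 by -0.81.

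**Figure D2:**
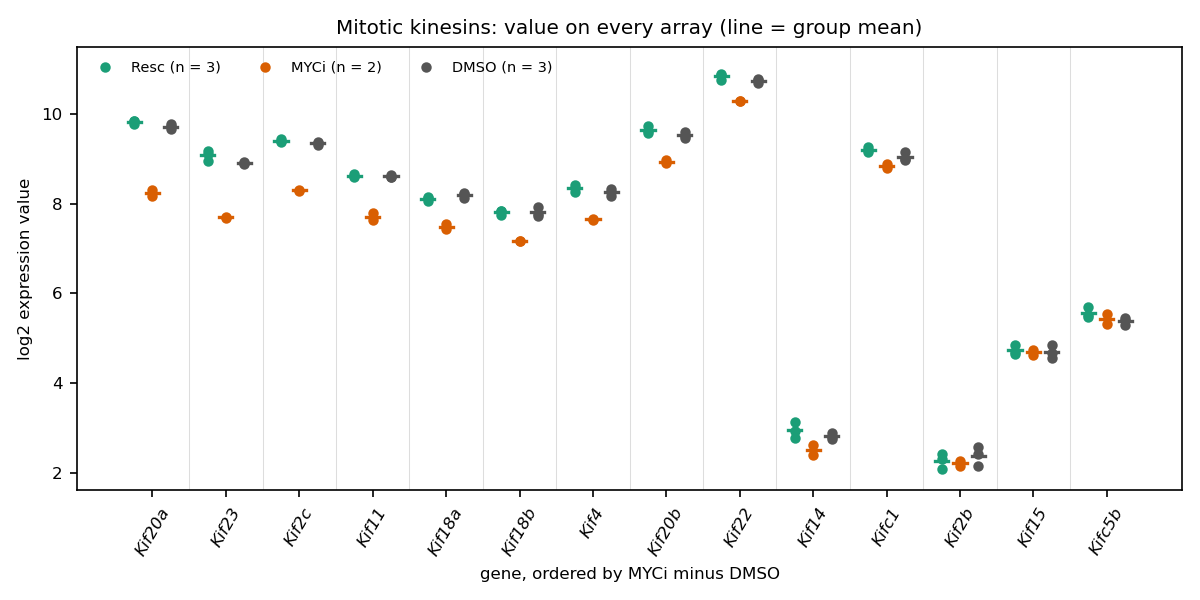
Log2 expression value of each mitotic kinesin on every array, in the order Resc (3 arrays), MYCi (2 arrays) and DMSO (3 arrays) for each gene; points are arrays and lines are group means, and genes are ordered by MYCi minus DMSO. For Kif20a the MYCi points sit at 8.17 and 8.30, under all Resc and DMSO points, while Kif15, Kif2b and Kifc5b overlap between MYCi and DMSO.

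Promoters are shown for the 4 mitotic members with the largest changes, leaving out Kif20a, and for the transport member with the largest rise, so that the letters near the start of genes that fell can be set beside those of one that rose. Each window runs from 250 bases before to 50 bases after a transcript start, taken from RefSeq on GRCm38.p6, and is written 5′ to 3′ on the gene's strand. Searched on both strands were the CHR (cell cycle genes homology region, TTTGAA or TTCGAA), the CCAAT box (CCAAT), the E-box that MYC is known to bind (CACGTG) and an E2F site (TTTGGCGC or TTTCGCGC). Capitals mark every match; on the other strand the CHR reads as TTCAAA, the CCAAT box as ATTGG and the E2F site as GCGCCAAA. Kif23 is at chr9:61946750-61947049 on the minus strand, Kif2c at chr4:117178723-117179022 on the minus strand, Kif11 at chr19:37376132-37376431 on the plus strand, Kif18a at chr2:109280488-109280787 on the plus strand and Kif21a at chr15:91049902-91050201 on the minus strand. The start used for Kif2c lies inside the span of the gene, so its window may not be the main promoter.
Kif23: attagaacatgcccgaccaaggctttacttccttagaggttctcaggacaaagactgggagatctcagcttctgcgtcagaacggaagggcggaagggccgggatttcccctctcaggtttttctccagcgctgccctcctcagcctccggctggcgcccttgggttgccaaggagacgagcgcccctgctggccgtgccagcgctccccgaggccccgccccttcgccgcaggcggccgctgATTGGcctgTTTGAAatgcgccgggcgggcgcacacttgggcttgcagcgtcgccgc
Kif2c: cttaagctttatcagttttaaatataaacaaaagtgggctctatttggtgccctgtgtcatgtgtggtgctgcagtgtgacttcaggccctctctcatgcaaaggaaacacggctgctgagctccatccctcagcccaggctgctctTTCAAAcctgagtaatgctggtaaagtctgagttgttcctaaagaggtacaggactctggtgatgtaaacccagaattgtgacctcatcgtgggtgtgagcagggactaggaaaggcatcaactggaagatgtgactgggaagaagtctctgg
Kif11: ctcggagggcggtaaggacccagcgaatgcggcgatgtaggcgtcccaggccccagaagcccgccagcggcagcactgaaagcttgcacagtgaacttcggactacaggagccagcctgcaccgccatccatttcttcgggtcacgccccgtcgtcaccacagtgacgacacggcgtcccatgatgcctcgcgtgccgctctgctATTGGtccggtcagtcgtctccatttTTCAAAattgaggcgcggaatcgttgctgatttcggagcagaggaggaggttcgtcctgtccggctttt
Kif18a: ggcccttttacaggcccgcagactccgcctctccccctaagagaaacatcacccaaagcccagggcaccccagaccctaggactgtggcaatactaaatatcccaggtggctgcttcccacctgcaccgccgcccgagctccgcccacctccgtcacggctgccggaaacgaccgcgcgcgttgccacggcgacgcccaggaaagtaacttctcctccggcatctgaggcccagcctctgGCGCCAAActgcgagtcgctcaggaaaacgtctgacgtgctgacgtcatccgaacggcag
Kif21a: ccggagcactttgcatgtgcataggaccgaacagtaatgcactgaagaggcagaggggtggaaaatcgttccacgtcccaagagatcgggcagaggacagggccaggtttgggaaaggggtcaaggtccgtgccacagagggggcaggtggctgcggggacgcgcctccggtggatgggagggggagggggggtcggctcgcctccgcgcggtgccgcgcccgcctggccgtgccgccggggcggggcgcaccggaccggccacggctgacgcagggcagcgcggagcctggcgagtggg

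A window was found for 33 of the 41 kinesins. The CHR letters stood in the windows of 11 of 13 mitotic kinesins (84.6%), 1 of 11 transport kinesins (9.09%) and 3 of 9 others (33.3%), beside 21.7% of 27025 genes with a window. In Kif23 they begin at base 3 of the transcript, shortly after a CCAAT box, and in Kif11 they begin at base -19, counted with -1 as the base before the start. Within 50 bases of the start, a distance chosen after the positions were seen, 9 of 13 mitotic windows (69.2%), 1 of 11 transport windows (9.09%) and 2 of 9 others (22.2%) held the letters, beside 6.12% of all genes. A CCAAT box stood in 9 of 13 mitotic windows (69.2%), 3 of 11 transport windows (27.3%) and 4 of 9 others (44.4%), beside 41.1% of all genes. Both motifs were found for 8 of 13 mitotic kinesins (61.5%), 0 of 11 transport kinesins and 3 of 9 others (33.3%), beside 9.65% of all genes, so the pair was not confined to mitotic members. Each motif was counted per gene over all of its windows, so in genes with several windows the pair may lie in different ones. The E2F letters were in 2 mitotic windows, Kif15 and Kif18a (15.4%, beside 0.929% of all genes), and the E-box was in 0 of 13 mitotic windows and 1 of 11 transport windows, that of Kif1a (8.09% of all genes). Kif15, whose level did not pass the test, holds the CHR letters as Kif11 does. A match describes letters in a window, and binding was not measured.

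Where transport kinesins changed, they were mostly higher, among them both kinesin-4 motors. Kif21a, which limits microtubule growth and in humans is mutated in an inherited eye movement disorder, had 6.24 and 6.43 on the MYCi arrays, against 5.05, 4.85 and 5.08 on the DMSO arrays. The MYCi arrays were above every DMSO array by more than the spread of either group, with a log2 change of 1.34 ± 0.10 (adjusted p = 5.35e-06), 2.53-fold higher. Its close relative Kif21b, known from neurons and lymphocytes, was higher by 0.49 ± 0.069 (adjusted p = 2.61e-04).

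Of the 3 heavy chains of kinesin-1, the conventional kinesin of vesicles and mitochondria, 2 were higher in MYCi cells. Kif5a, a heavy chain best known from neurons, had 7.24 and 7.06 on the MYCi arrays, against 6.43, 6.55 and 6.44 on the DMSO arrays. Its groups did not overlap, at a log2 change of 0.67 ± 0.080 (adjusted p = 9.28e-05). Kif5c, also known mainly from neurons, changed by 0.75 ± 0.11 (adjusted p = 4.51e-04). Kif5b, the heavy chain made in most cells, had 9.73 and 9.73 on the MYCi arrays, against 9.54, 9.55 and 9.67 on the DMSO arrays. The MYCi values lay just above the DMSO values, and the change of 0.14 ± 0.068 (adjusted p = 0.124) on the log2 scale did not pass.

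Kinesin-3 motors, which carry vesicles and endosomes, were higher in 4 of 6 cases. Kif1b, a carrier of mitochondria and synaptic vesicle precursors, had 8.04 and 7.78 on the MYCi arrays, against 7.16, 6.93 and 6.96 on the DMSO arrays. Both MYCi arrays lay above the DMSO arrays, with a log2 change of 0.89 ± 0.097 (adjusted p = 5.02e-05), 1.85-fold higher. Kif16b, which moves early endosomes, had 7.75 and 7.77 on the MYCi arrays, against 6.92, 6.97 and 7.10 on the DMSO arrays. The change was 0.76 ± 0.074 (adjusted p = 2.20e-05), 1.7-fold higher, and the groups were again apart. Kif13a, an endosome motor, had 7.65 and 7.66 on the MYCi arrays, against 7.28, 7.27 and 7.29 on the DMSO arrays. Replicates were nearly equal in both groups, and the log2 change was 0.38 ± 0.075 (adjusted p = 0.0025). Kif13b, known to carry the scaffold DLG1, passed narrowly at 0.20 ± 0.069 (adjusted p = 0.0419), and its call was lost without any 1 of 6 arrays, all but Resc replicates 1 and 3, with an adjusted p of 0.0581 to 0.218. Kif1c, a vesicle motor, had 0.18 (adjusted p = 0.15) and Kif1a, which carries synaptic vesicle precursors, had -0.16 (adjusted p = 0.331).

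Among the 4 kinesin-2 subunits, which drive transport into cilia and along axons, Kif3a was higher by 0.40 ± 0.070 (adjusted p = 0.00121). Its partner Kif3b had a log2 change of 0.03 (adjusted p = 0.752), and the homodimeric Kif17 had 0.08 (adjusted p = 0.492). Kif3c, an alternative partner of Kif3a, had 7.20 and 7.06 on the MYCi arrays, against 6.92, 6.90 and 7.05 on the DMSO arrays. Its MYCi arrays lay narrowly above the DMSO arrays, and the log2 change of 0.17 ± 0.077 (adjusted p = 0.106) did not pass. Of the minus-end transport motors, Kifc3, known from apical transport and adherens junctions, was the 1 transport member that was lower, at -0.46 ± 0.098 (adjusted p = 0.00364), and Kifc2 had -0.20 (adjusted p = 0.257). In all 18 alternatives 7 of the 10 transport calls held, the exceptions being Kif13a, Kif13b and Kif21b. Held calls shrank with the mean of all probe sets of a gene, to 0.19 for Kif5a (adjusted p = 0.0494), 0.19 for Kif5c (0.0187), 0.21 for Kif3a (0.0340), 0.33 for Kif1b (0.00136) and 0.80 for Kif21a (1.02e-04).

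**Figure D3:**
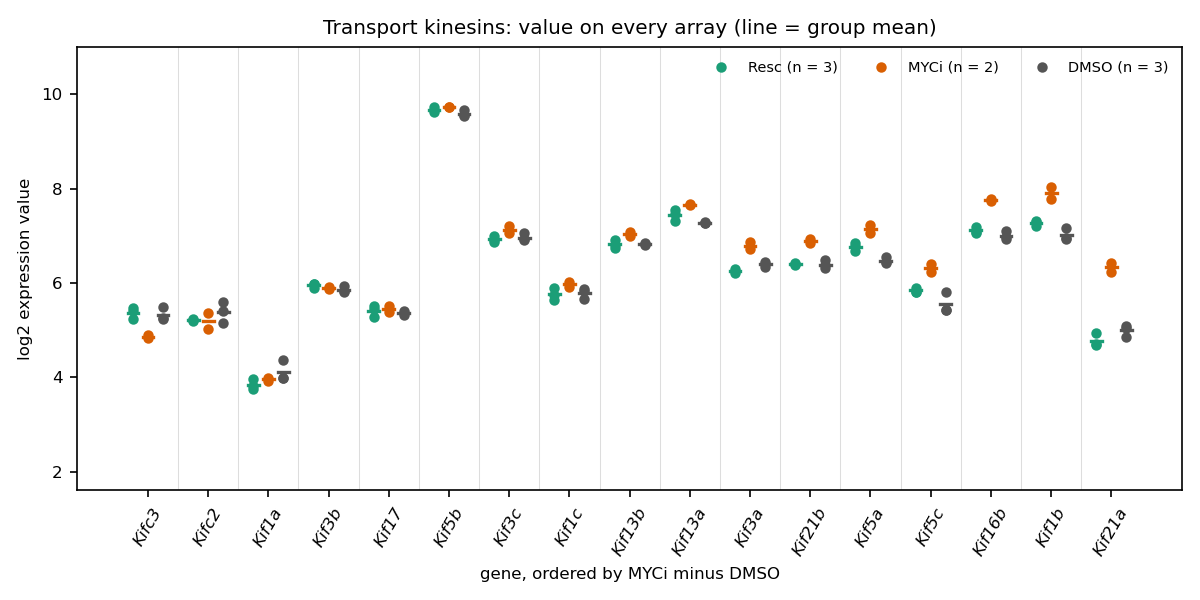
Log2 expression value of each transport kinesin on every array, in the order Resc (3 arrays), MYCi (2 arrays) and DMSO (3 arrays) for each gene; points are arrays, lines are group means, and genes run from the lowest to the highest MYCi minus DMSO. The 2 MYCi points of Kif21a sit at 6.24 and 6.43, above the DMSO points at 4.85 to 5.08.

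Markers of other cells were read beside the transport result, since several of these motors are known from differentiated cells. Of all genes, 19.2% were higher and 22.3% lower in MYCi against DMSO cells. In Resc against DMSO cells 4.66% were higher and 4.01% lower. The summed linear level of 13 neural markers was 2783 to 2997 on the Resc arrays, 2431 to 2580 on the MYCi arrays and 2397 to 2563 on the DMSO arrays. Snap25 lay under the upper end of the control range on all arrays. Stmn2 and Nefl had the highest levels of these markers, so they weigh most in the sum. In MYCi against DMSO cells 1 neural marker (7.69%) was higher, Nefl at 0.54 (adjusted p = 1.35e-04), and 4 (30.8%) were lower. Among the lower ones were Map2 at -2.13 (adjusted p = 8.06e-07) and Stmn2 at -0.32 (0.00899). In Resc against DMSO cells 1 (7.69%) was higher, Nefl at 0.64 (adjusted p = 2.83e-04). The 2 lower ones (15.4%) were Map2 at -1.30 (adjusted p = 1.25e-04) and Sox1 at -0.36 (0.0165). The summed level of 10 trophectoderm markers was 760 to 850 on the Resc arrays, 3391 to 3497 on the MYCi arrays and 1037 to 1149 on the DMSO arrays. Of these 10, 6 (60.0%) were higher and 0 lower in MYCi cells, with a log2 change of 3.24 (adjusted p = 1.25e-08) for the keratin Krt8. Among the transcription factors of this list, Eomes was higher by 2.23 (adjusted p = 2.50e-08), Gata3 by 1.28 (adjusted p = 1.99e-05) and Tead4 by 0.26 (adjusted p = 0.024). The factors Cdx2, Elf5, Tfap2c and Hand1 did not pass, at -0.20, 0.08, 0.20 and -0.15. In Resc against DMSO cells 1 of the 10 was higher, Krt18 at 1.59 (adjusted p = 1.16e-04). The 2 that were lower were Krt7 at -1.21 (adjusted p = 0.00293) and Tfap2c at -1.08 (1.16e-04). The 10 ESC markers had a summed level of 34067 to 35424 on the Resc arrays, 33640 to 33739 on the MYCi arrays and 33923 to 34364 on the DMSO arrays. Beneath that sum, 4 of the 10 were higher and 3 lower in MYCi than in DMSO cells, from -1.79 (adjusted p = 4.04e-08) for Utf1 to 0.69 (adjusted p = 3.85e-05) for Zfp42. The 9 fibroblast and feeder markers summed to 994 to 1035 on the Resc arrays, 606 to 618 on the MYCi arrays and 1039 to 1235 on the DMSO arrays. Vim had by far the highest level of the 9, so this sum mostly reads Vim. Of the 9, 2 (22.2%) were lower in MYCi against DMSO cells, Vim at -1.04 (adjusted p = 7.35e-06) and Thy1 at -0.40 (adjusted p = 0.00613). In limma's test and at an unadjusted p under 0.05, 0 were higher. Col3a1 lay under the upper end of the control range on all arrays. The part of these marker changes in the kinesin results was not tested.

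The other 10 kinesins were mostly lower in MYCi cells where they changed. Both kinesin-13 motors of this group were lower, Kif2a, which takes microtubule ends apart at spindle poles and in growing neurites, at -0.40 ± 0.084 (adjusted p = 0.00361) and Kif24, which restrains cilium formation at centrioles, at -0.45 ± 0.10 (adjusted p = 0.00556). Of 4 kinesins of cilia and Hedgehog signalling, 3 were lower, with -0.31 ± 0.078 (adjusted p = 0.00946) for Kif7, which organises the ciliary tip and regulates GLI proteins, -0.32 ± 0.10 (adjusted p = 0.0305) for Kif6 and -0.26 ± 0.089 (adjusted p = 0.0426) for Kif9, both known from motile cilia and sperm flagella. Kif6 and Kif9 had low levels, 3.35 to 3.88 and 3.63 to 4.04 over all arrays, under the array medians. Beside the kinesins of cilia, 9 markers of ciliated epithelium and sperm were read. They summed to 189 to 207 on the Resc arrays, 174 to 175 on the MYCi arrays and 208 to 213 on the DMSO arrays. Of these 9, 3 (33.3%) were lower in MYCi than in DMSO cells and 1 (11.1%) was higher, beside 22.3% and 19.2% of all genes. Rsph1, a radial spoke protein, had -1.30 (adjusted p = 7.13e-06), and the sperm marker Tnp1 lay within the control range on all arrays. The part of these markers in the result was not tested. Kif27, a relative of Kif7, had 0.0044 (adjusted p = 0.972). Kif26b, a divergent kinesin of cell adhesion and kidney development, was higher by 0.34 ± 0.10 (adjusted p = 0.0258). The remaining Kif28, Kif12 and Kif26a had log2 changes of -0.19, 0.0038 and 0.10 and did not pass.

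Of these 6 calls, that of Kif2a held in all alternatives and the other 5 were each lost when some single array was left out. Without MYCi replicate 1 the calls of Kif24 (adjusted p = 0.0657), Kif7 (0.0864) and Kif26b (0.253) were lost, and Kif28 became a call of lower at 0.0304. Kif26b was also lost without DMSO replicate 1 (0.0507) or 2 (0.0717). Kif6 was lost without MYCi replicate 2 (0.245) and without DMSO replicate 1 (0.0574) or 2 (0.0870). Kif9 was lost without MYCi replicate 1 or 2, Resc replicate 1, or DMSO replicate 1 or 3, at an adjusted p of 0.0568 to 0.191.

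Many kinesins are read by more than 1 probe set, which lets the kept one be set against the others in the same RNA. The 41 genes have 104 probe sets, and 26 genes have several. Tested over all 34945 probe sets with 1 symbol, 19 of 27 mitotic probe sets were lower in MYCi cells and 0 were higher, and 17 of 59 transport probe sets were higher and 4 lower. Of the other 18, 1 was higher and 8 were lower. The background was 17.5% higher and 19.9% lower. In the 6 mitotic genes with several probe sets, every probe set had a change below 0. All 3 probe sets of Kif11 were lower, with log2 changes of -0.90 to -1.06, as were all 3 of Kif22, where the kept one changed least (-0.46, beside -0.95 and -1.03). Kif23 ranged from -0.39 to -1.62 and Kif2c from -0.36 to -1.25, with every probe set lower.

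For several transport genes the call depended on the probe set. Kif21a had a second probe set at 1.33, beside 1.34 for the kept one, and a further one at -0.27 that did not pass. Kif5b had 4 of 6 probe sets called higher, up to 0.68, though the kept one did not pass, and with the mean of its probe sets it was called higher at 0.31 (adjusted p = 0.00557). Kif1b had 3 of 7 higher. The Kif21b call had a second probe set called lower at -0.39, and Kif5c, Kif5a and Kif13a had no called probe set besides the kept one. With the mean of all probe sets of a gene, the calls of Kif13a (adjusted p = 0.758), Kif21b (0.597) and Kif13b (0.522) were lost, and Kif1a was called lower at 0.0382. Probe sets of 1 gene may read different transcript ends, and which ends these are was not determined here.

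**Figure D4:**
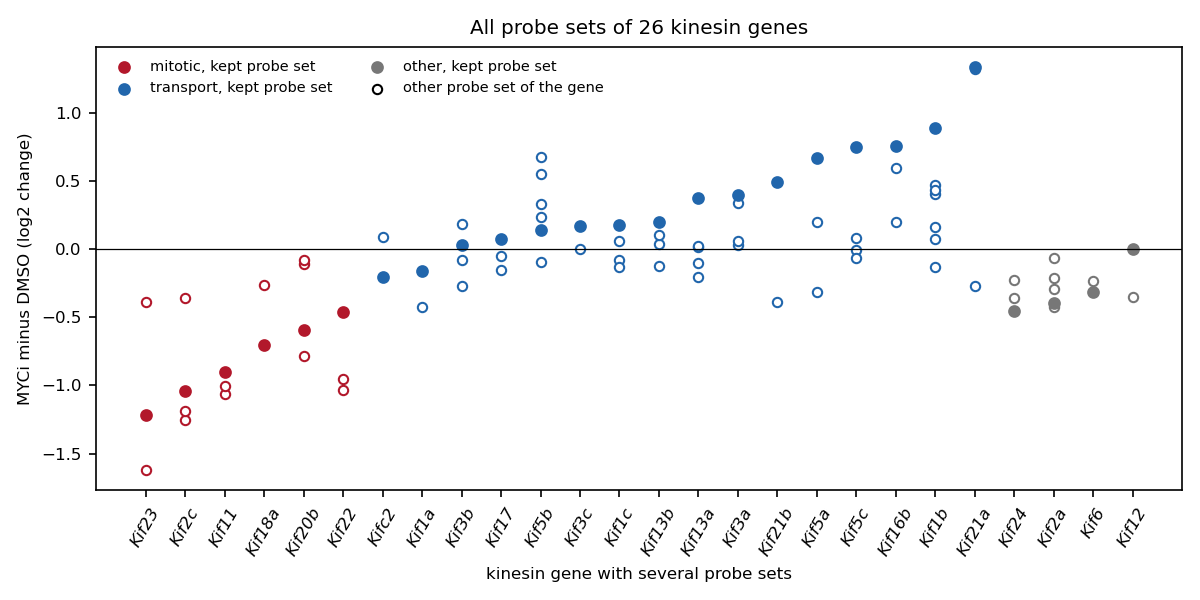
Log2 change, MYCi minus DMSO, of every probe set of the 26 kinesin genes with more than 1 probe set; filled points are the kept probe set and open points the others, in red for mitotic, blue for transport and grey for other members. All red points lie below 0, while for most transport genes shown, Kif5a, Kif21a and Kif21b among them, the blue points lie on both sides of 0.

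The second comparison asked what changed in the 48 h after withdrawal, and it shares the MYCi arrays with the first. Of the mitotic kinesins, 11 of 14 were higher in Resc than in MYCi cells and 0 were lower, with a median log2 change of 0.63, or 12 of 15 with Kif2a counted as mitotic. Of the transport kinesins, 9 of 17 were lower and 1 was higher, with a median of -0.21. Of the others, 3 of 10 were higher and 0 lower, with 1 lower at an unadjusted p under 0.05. The background was 41.9% of all genes, 22.7% higher and 19.2% lower, with a median of 0.062.

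Kif20a had 9.79, 9.84 and 9.85 on the Resc arrays, above both MYCi arrays, with a log2 change of 1.59 ± 0.067 (adjusted p = 1.13e-07), 3.01-fold higher. Kif23 had 9.12, 9.17 and 8.96 on the Resc arrays, a log2 change of 1.39 ± 0.074 (adjusted p = 4.36e-07). For Kif2c the Resc values were 9.44, 9.41 and 9.38, with 1.10 ± 0.059 (adjusted p = 4.47e-07), and for Kif11 the change was 0.91 ± 0.067 (adjusted p = 3.51e-06). Kif18a, Kif18b, Kif4, Kif20b and Kif22 were higher in Resc than in MYCi cells by 0.56 to 0.70. Kif14 and Kifc1 were higher by 0.44 (adjusted p = 0.00771) and 0.37 (adjusted p = 0.00259), and Kif14 lost its call without MYCi replicate 1 (0.0823). Kif15, Kif2b and Kifc5b, with 0.04, 0.06 and 0.13, did not pass.

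Among transport kinesins, Kif21a had 4.68, 4.93 and 4.70 on the Resc arrays, below both MYCi arrays by more than the spread, with a log2 change of -1.57 ± 0.10 (adjusted p = 1.80e-06), 2.96-fold lower. Kif16b had 7.19, 7.09 and 7.07 and Kif1b had 7.31, 7.30 and 7.21 on the Resc arrays, and both were lower, with log2 changes of -0.64 ± 0.074 (adjusted p = 6.72e-05) and -0.64 ± 0.097 (adjusted p = 4.66e-04). For Kif1b this was 1 of its 7 probe sets, and the other 2 that were higher in MYCi than in DMSO cells did not pass here, with -0.07 and 0.12. Kif3a changed by -0.54 (adjusted p = 1.64e-04), Kif21b by -0.48 (adjusted p = 2.98e-04), Kif5c by -0.47 (adjusted p = 0.00787) and Kif5a by -0.38 (adjusted p = 0.00339). Kif13a and Kif13b, both at -0.21, passed narrowly with adjusted p of 0.0472 and 0.0339. Over all probe sets tested, the kept one of Kif13a did not pass (adjusted p = 0.0627), and another was called higher, at 0.40 (0.0422). Kif21a, with 2 probe sets called lower there, and Kif3b each had 1 called higher, at 0.34 and 0.35. Kif5b and Kif3c had -0.06 (adjusted p = 0.528) and -0.21 (adjusted p = 0.057). Kifc3 was the 1 transport member that was higher in Resc than in MYCi cells, by 0.50 ± 0.098 (adjusted p = 0.00213).

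Single arrays decided several of these smaller changes. The Kif13a call was lost without any 1 of 7 arrays, all but Resc replicate 3, at an adjusted p of 0.0593 to 0.164. Kif13b lost its call without MYCi replicate 1 (0.190) or 2 (0.0595) and without Resc replicate 1 (0.101) or 2 (0.0757), Kif5c lost its call without MYCi replicate 2 (0.0784), and Kif1c was called lower without Resc replicate 1 (0.0444). With the mean of all probe sets of a gene, 4 transport members were lower. The calls of Kif1b (-0.093, adjusted p = 0.248), Kif21b (-0.079, 0.418), Kif5c (-0.054, 0.479), Kif5a (-0.16, 0.0917), Kif13b (-0.051, 0.580) and Kif13a (0.10, 0.168) were lost, and Kif5b was gained (-0.31, 0.00589). Of the calls that held, Kif21a was then at -0.95, Kif3a at -0.35, Kif18a at 0.38, Kif22 at 0.85 and Kif24 at 0.26. Of the other kinesins, Kif24, Kif7 and Kif2a were higher in Resc than in MYCi cells by 0.48, 0.31 and 0.24, and all 3 calls were lost without MYCi replicate 1, at 0.0504, 0.0857 and 0.105. Kif2a was also lost without MYCi replicate 2 (0.167), Resc replicate 1 (0.0676) or Resc replicate 2 (0.119), and Kif27 was called lower without Resc replicate 2 (0.0499).

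The third comparison asked which kinesins still differed from DMSO cells after withdrawal, and it shares arrays with both others. Of the 41 kinesins, 1 was called, Kif5a, beside 8.66% of all genes, 4.66% higher and 4.01% lower. Without regard to the test, 9 kinesins had Resc arrays entirely above and 4 entirely below the DMSO arrays, beside 14.6% and 14.0% of all genes. Log2 changes of the 41 members ran from -0.28 for Kif1a to 0.29 for Kif5a. Mitotic members had a median of 0.092, with 11 of 14 changes above 0 and 0 calls in limma's test, where 2 were higher and 0 lower at an unadjusted p under 0.05. In 5 of them, Kif20a, Kif23, Kif2c, Kifc1 and Kifc5b, all Resc arrays lay above all DMSO arrays, by a mean of 0.06 to 0.18, which did not pass. With a variance trend and robust fit, Kif23 and Kifc1 were called higher (adjusted p = 0.0352 and 0.0439).

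Kif5a had 6.67, 6.78 and 6.84 on the Resc arrays, 7.24 and 7.06 on the MYCi arrays and 6.43, 6.55 and 6.44 on the DMSO arrays. Its Resc values lay between those of the other groups, without overlap with either, and the change against DMSO was 0.29 ± 0.072 (adjusted p = 0.0368). That call was lost without Resc replicate 2 (0.105) or 3 (0.119), without DMSO replicate 1 (0.109) or 3 (0.0987), and with the mean of its probe sets (0.823). Its relative Kif5c had 5.90, 5.80 and 5.82 on the Resc arrays, 6.22 and 6.39 on the MYCi arrays and 5.43, 5.80 and 5.43 on the DMSO arrays, where 1 DMSO array lay near the Resc arrays. The change of 0.28 ± 0.10 (adjusted p = 0.13) did not pass, and without DMSO replicate 2 it was 0.41 (0.0149). For Kif1b, Resc arrays lay above DMSO arrays by 0.26 ± 0.087 (adjusted p = 0.111), which did not pass with the kept probe set and did with the mean of its probe sets (0.0236). Of its other probe sets, 2 were called higher, at 0.40 (adjusted p = 0.00486) and 0.55 (0.00195) over all probe sets tested. Kif21a had a log2 change of -0.23 ± 0.093 (adjusted p = 0.187). Kif26b, at 0.28 ± 0.093 (adjusted p = 0.102), was called with only the Resc and DMSO arrays in the fit (0.0322). Leaving out either MYCi array repeats that fit, since a single MYCi array adds nothing to the estimate of the spread.

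Genes that work with kinesins were read from 6 lists, to be set beside the 19.2% of all genes that were higher and the 22.3% that were lower in MYCi against DMSO cells. Partners of mitotic kinesins were lower in MYCi than in DMSO cells in 17 of 19 measured cases (89.5%) and higher in 0, with a median log2 change of -0.78. This list includes Cenpe, itself a mitotic kinesin, at -0.47 (adjusted p = 0.00384). The smallest p-values were those of Aurkb, the kinase of the chromosomal passenger complex that Kif20a carries, at -1.65 (adjusted p = 3.42e-07), Racgap1, which joins Kif23 in centralspindlin, at -1.07 (adjusted p = 6.05e-07), Plk1, a mitotic kinase that docks on Kif20a, at -1.14 (adjusted p = 7.39e-07), and Cdk1, the kinase that starts mitosis, at -1.02 (adjusted p = 1.11e-06). Cit and Anln, at -0.32 and -0.12, did not pass. Between Resc and DMSO cells 2 of the 19 (10.5%) were called, both higher, beside 4.66% of all genes. They were Prc1 and Cep55, picked out after their values were seen, at 0.25 and 0.27.

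Kinesin light chains, adaptors and cargo linkers were higher in 7 (41.2%) and lower in 1 (5.88%) of 17 measured cases in MYCi against DMSO cells, with a median of 0.10. Klc1, a light chain that ties cargo to the KIF5 heavy chains, changed by 1.28 (adjusted p = 1.59e-06), Fez2, a relative of the kinesin-1 adaptor Fez1, by 0.94 (adjusted p = 7.30e-06), Kidins220, a kinesin-1 cargo, by 0.84 (adjusted p = 8.34e-06), and the adaptor Mapk8ip3 by 0.56 (adjusted p = 0.00131). Rhot2, a mitochondrial anchor named after its value was seen, was lower, at -0.42 (adjusted p = 0.00931). Dynein and dynactin, which pull the opposite way on microtubules, were higher in 7 (36.8%) and lower in 2 (10.5%) of 19, with a median of 0.033. Here Dynlt3, a dynein light chain, had 1.30 (adjusted p = 5.85e-06), the heavy chain Dync1h1 0.81 (adjusted p = 3.75e-06), and the paralogous dynein regulators Ndel1 and Nde1 0.87 (adjusted p = 3.62e-06) and -0.57 (adjusted p = 9.51e-05).

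Genes of intraflagellar transport and the BBSome, cargo of kinesin-2 in cilia, moved both ways, with 9 of 23 higher (39.1%), 7 lower (30.4%) and a median of 0.042. Dync2h1, the motor of return transport in cilia, was higher by 1.50 (adjusted p = 9.73e-07), Ift172 by 0.88 (adjusted p = 2.93e-06) and Ift122 by 0.84 (adjusted p = 8.16e-06), and Ift80 was lower, at -0.62 (adjusted p = 8.12e-05). Of 8 genes of the Hedgehog pathway in which Kif7 acts, 3 were higher and 4 lower. The ligand-binding antagonist Hhip had 1.46 (adjusted p = 3.20e-05), the transcription factor Gli2 -0.50 (adjusted p = 1.17e-04), the signal transducer Smo 0.37 (adjusted p = 0.00445) and the ciliary receptor Gpr161 0.43 (adjusted p = 0.00873). Of 11 tubulins, the subunits of the track itself, 5 were lower (45.5%) and 1 higher (9.09%), with a median of -0.22. Tubb3 had -1.39 (adjusted p = 7.25e-07), Tuba1a -0.79 (adjusted p = 4.21e-06) and Tubb4b -0.91 (adjusted p = 4.80e-06), and Tubb2a was the 1 that was higher, at 0.62 (adjusted p = 8.05e-05).

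**Figure D5:**
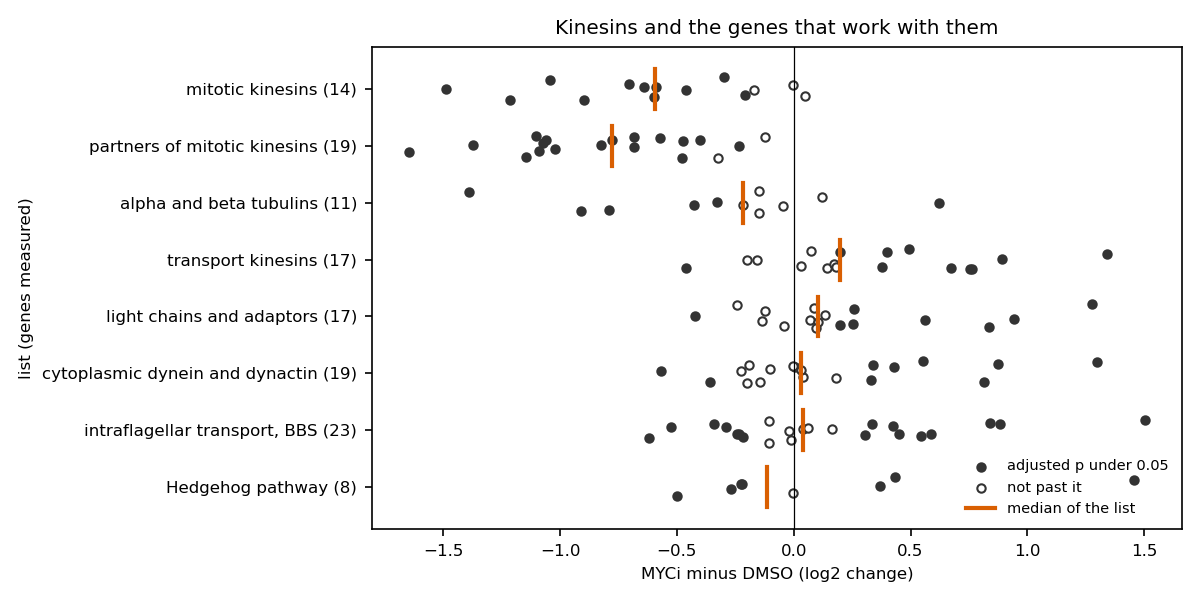
Log2 change, MYCi minus DMSO, of each gene in 2 groups of kinesins and 6 lists of genes that work with them; 1 point is 1 gene, filled where the adjusted p was under 0.05, and the orange line is the median of the list. The medians of mitotic kinesins and their partners lie at -0.59 and -0.78, and those of transport kinesins and adaptors at 0.20 and 0.10.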

How the data were processed

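Total RNA of 8 ESC samples was measured on Affymetrix arrays 1 for each, after labelling of cRNA with biotin. The authors' deposited values are log2 expression values, and were made with RMA, with oligo 1.32.0 and limma 3.2.15 also listed, per the submitters' processing notes. RMA equalises the arrays' distributions, so a change shared by most genes is not visible. The platform annotation gave 1 symbol to 34945 of 45101 probe sets, and 18193 genes were tested. One limma 3.58.1 fit in R 4.3.3 (lmFit, eBayes) with 3 group means over all 8 arrays left 5 residual degrees of freedom, and two-sided p-values received the Benjamini-Hochberg adjustment over all genes. Depth does not apply to arrays, and their number limits the precision. In simulated data with 200 of 18193 genes changed, the procedure called 91% of those given a log2 change of 0.5 in MYCi against DMSO. Far more genes were called in the real comparison, so the share there may differ.

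The kinesins, their roles and all lists were chosen with earlier results of these data known. Values on every array were given for members called in MYCi against DMSO with a log2 change of at least 1 either way, members called in Resc against DMSO, and the 5 transport members with the highest mean, and Kif5c was added after its values were seen. For each list, up to 4 genes with the smallest p were named. Replicate numbers occur in all groups, but same-numbered arrays did not deviate together (correlations of -0.0562 to 0.0141), so no pairing was used. Promoter windows were searched in Python 3.11.15 with pandas 2.3.3. Alternatives were other probe set rules, a floor at the 30th percentile of mean level, other normalizations and variance models, a replicate block, a threshold of 0.01 and leaving out each array.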

Additional observations from a re-analysis of the deposited data

How the results depend on the processing

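Over 18 alternatives, changes of sign among members called in neither analysis were not counted, and 77 of 2187 member values changed sign in that way. The calls of 9 of 11 mitotic and 7 of 10 transport kinesins in MYCi against DMSO were kept in every alternative, as were 10 of 11 and 4 of 10 in Resc against MYCi. Leaving out 1 array gave 9 to 10 lower mitotic and 8 to 9 higher transport members in MYCi against DMSO, and 10 to 11 higher mitotic and 6 to 9 lower transport members in Resc against MYCi. With 1 MYCi array left, that array was assumed to vary like the other groups. For Resc against DMSO, leaving out a MYCi array gave the same result as fitting only the arrays compared. In MYCi against DMSO, the count of lower transport members was 2 with the mean of all probe sets, that of higher members among the other kinesins was 0 to 1 with 1 array left out and 0 at a threshold of 0.01, and that of lower ones was 3 without genes at a low level, with quantile normalization repeated and at 0.01, and 3 to 5 with 1 array left out. In Resc against MYCi, lower transport members numbered 4 with the mean of all probe sets, higher members among the other kinesins 0 to 3 with 1 array left out, and lower ones 1 with quantile normalization repeated and 0 to 1 with 1 array left out. In Resc against DMSO, higher mitotic members numbered 2 with a variance trend and robust fit, higher transport members 2 there, 0 at 0.01 and 0 to 2 with 1 array left out, higher other members 1 with only the arrays compared and 0 to 1 with 1 array left out, and lower other members 1 with median centring. Kif13a in Resc against MYCi turned to 0.10 (adjusted p = 0.168) with the mean of all probe sets. Without genes at a low level, Kif6, Kif9 and Kif14, each called in MYCi against DMSO, were left out of the test. So were Kif1a, Kif2b, Kif12, Kif26a, Kif27 and Kif28. The mean of all probe sets adds the other probe sets of a gene. The cause of the remaining shifts was not tested.

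The replicate number as a block gave 0 called kinesins in Resc against DMSO, with Kif5a at an adjusted p of 0.0790, and ended the MYCi against DMSO calls of Kif14 (0.105), Kifc1 (0.0566) and Kif9 (0.0908). In Resc against MYCi the block ended the calls of Kif13a (0.0510) and Kif2a (0.0828) and added Kif3c (-0.25, 0.0366). Same-numbered arrays correlated by -0.0562 to 0.0141 and differently numbered ones by -0.0598 to 0.0687. Median centring moved the median of all genes in MYCi against DMSO to -0.106 and the split of calls to 17.4% higher and 28.2% lower, beside 19.2% and 22.3%. Members near the control probe sets, Kif14 and Kif2b, can show little change.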
